A study of Mus musculus with 16 samples.

Results

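The respiratory chain was described here through its nuclear genes: the rows of a mouse liver RNA-seq count table whose symbols begin with Ndufa, Ndufb, Ndufc, Ndufs or Ndufv, Uqcr, Cox4 to Cox8 or Atp5, or read Sdha, Sdhb, Sdhc or Sdhd, and which held at least 100 reads summed over the 16 libraries. Of 33730 rows, 98 matched by name and 88 met the minimum. The 88 genes comprised 46 named for complex I, 4 for complex II, 8 for complex III, 12 for complex IV and 18 for complex V. The names reach beyond the subunits themselves. By known role, 75 members were subunits and 10 were assembly factors or proteins needed for assembly (Ndufaf1 to Ndufaf8, Atp5sl and Cox7a2l). The other members were Atp5s, an ATP synthase coupling factor, Ndufa4l2, a paralog of Ndufa4, and the pseudogene Atp5l2-ps. The members lay on 19 chromosomes. Ndufa4 was kept with complex I after its name, although its protein is now counted with complex IV. The member nearest the minimum was Ndufa4l2 with 218 reads, and the nearest row left out was the pseudogene Atp5l-ps2 with 62.

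Complexes I to IV of the inner mitochondrial membrane pass electrons from NADH and succinate to oxygen, and all but complex II pump protons as they do so. Complex V, the ATP synthase, uses the proton gradient to make ATP. Hepatocytes are rich in mitochondria, and their oxidative phosphorylation pays for gluconeogenesis, urea synthesis and growth after part of the liver is removed. NRF2, encoded by Nfe2l2, is a transcription factor that binds antioxidant response elements together with small MAF proteins. It is released from KEAP1 by electrophiles such as the synthetic triterpenoid CDDO-Me. Many nuclear chain genes are known targets of nuclear respiratory factor 1 and of the ETS factor GABP. Despite similar abbreviations, neither is related to NRF2.

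The livers came from C57BL/6 mice, wild type (WT) or lacking Nrf2 (KO), with 4 libraries in each of 4 groups. WT mice received the solvent DMSO at 1 µL/g or CDDO-Me at 3 mg/kg in DMSO, and KO mice received the same dose of CDDO-Me or were labelled untreated. Per the labels mice were injected intraperitoneally at 24 h and again at 1 h ahead of partial hepatectomy, and each sample is liver taken at that operation (day 0). The series text instead puts the resections 24 h after treatment, so whether a dose preceded sampling by 1 h is not settled by these sources. The series text gives 4 animals per group, but no label states that each library is a separate animal, so p-values measure the spread between these samples, which may be technical. The sources used here give neither ages nor the deleted part of Nrf2. Because the KO controls had no solvent, solvent and genotype cannot be told apart between KO untreated and WT DMSO, nor solvent and drug between the KO groups. All livers were bulk tissue, in which fewer cells of a type and less RNA per cell cannot be told apart.

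Library totals ran from 12002317 to 99284626 reads, the highest by far being WT CDDO-Me 1. WT DMSO 1 and 2 and KO untreated 1 and 2 stood apart from all others: 0.673% to 0.967% of their reads fell in sense-intronic and unclassified (TEC) genes, against 0.186% to 0.407% in the other 12. Mitochondrial ribosomal RNA (mt-Rnr1 and mt-Rnr2) took 5.28%, 5.33% and 7.25% of reads in WT DMSO 1, 2 and 3 and 12.4% in WT CDDO-Me 4, against at most 1.54% elsewhere. Nfe2l2 itself averaged 59.8 ± 13.9 CPM in WT DMSO and 39.9 ± 3.93 in WT CDDO-Me, and 32.1 ± 14.8 in KO untreated and 18.9 ± 2.25 in KO CDDO-Me (mean ± SD, n = 4, CPM being counts scaled to the library total and edgeR's TMM factor). With edgeR's quasi-likelihood F-test, its p-values adjusted by Benjamini-Hochberg over all genes as throughout, it was lower in KO under CDDO-Me (-1.08 ± 0.26 log2 units ± SE, adjusted p = 0.0283, 0.000274 to 0.113 over 29 alternative settings) but did not pass without drug (-0.90 ± 0.25, adjusted p = 0.0969). Reads of Nfe2l2 remained in every library labelled KO, the highest being KO untreated 1 at 51.7 CPM, so this gene alone is a weak check of the labels. Nqo1, an NRF2 target, was at 3.80 ± 0.442 CPM in WT DMSO and 38.3 ± 6.39 in WT CDDO-Me, but at 0.758 ± 0.354 and 1.28 ± 0.590 in the KO groups. The 10 hepatocyte markers were all detected and summed to between 27500 and 53970 FPKM in each library. Of these, edgeR called only Tat, higher in KO than in WT under CDDO-Me (1.201 ± 0.217, adjusted p = 0.00430). DESeq2 and limma called both Cps1 and Tat, lower after CDDO-Me in WT and higher in KO than in WT under it, and DESeq2 also called Hnf4a lower in KO without drug and Tat in the difference of responses. Of 8 Kupffer cell and macrophage markers 4 rose after CDDO-Me in WT by edgeR's test (Adgre1, Cd5l, Clec4f and Marco), 6 by DESeq2 and 2 by limma. Adgre1 was also higher in KO than in WT without drug and Marco lower under it, by all 3 tools. All 8 summed to 58.6 to 118.6 FPKM in WT DMSO and 129.6 to 159.9 in KO untreated, and after CDDO-Me to 132.3 to 234.9 (WT) and 125.3 to 196.5 (KO). The part of both marker lists in the members' values was not tested.

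The promoters of the members were compared with 3 motifs on both strands of a window of 300 bases, 250 before and 50 after each RefSeq start (GRCm38.p6). A window was found for 71 members. The antioxidant response element core TGACNNNGC occurred in 11 of the 71 (15.5%), beside 14% of 27025 genes with a window. The nuclear respiratory factor 1 motif GCATGCGC occurred in 12 members (16.9%) beside 3.05% of all genes, and the GABP/ETS core CCGGAAG in 18 (25.4%) beside 9.93%. The members with the NRF2-type core were Atp5o, Cox5b, Ndufa1, Ndufa10, Ndufa11, Ndufa7, Ndufa9, Ndufaf3, Ndufaf4, Ndufs5 and Ndufv2, 9 of them complex I names. The 40 complex I members with a window thus held it in 22.5% of cases, beside the 14% of all genes. The other complexes held it less often, in 0 of 3 members for II, 0 of 5 for III, 1 of 10 for IV and 1 of 13 for V. The difference was not tested. These matches are descriptions of letters, not of binding. The bases before the start are printed for 4 complex I members whose stretch holds no annotated exon. Ndufaf4 holds both the NRF2-type core and the respiratory factor motif. It was also the only member with all KO CDDO-Me libraries above those of KO untreated and of WT CDDO-Me. Those comparisons separated 10.5% and 19.1% of all genes in either direction, and the share separated in both was not counted. Ndufa9 is shown as a subunit with the NRF2-type core and Ndufaf1 for the ETS core. Ndufb2 is the subunit whose level correlated least with that of the other members, and its stretch holds none of the 3 motifs. Sequences are RefSeq's, 5′ to 3′ on the gene's strand, with the motif in capitals.
Ndufaf4: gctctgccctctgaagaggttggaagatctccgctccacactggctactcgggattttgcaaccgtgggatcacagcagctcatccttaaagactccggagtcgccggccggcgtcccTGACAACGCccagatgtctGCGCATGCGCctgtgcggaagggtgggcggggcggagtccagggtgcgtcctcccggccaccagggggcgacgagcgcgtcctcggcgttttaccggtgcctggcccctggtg
Ndufa9: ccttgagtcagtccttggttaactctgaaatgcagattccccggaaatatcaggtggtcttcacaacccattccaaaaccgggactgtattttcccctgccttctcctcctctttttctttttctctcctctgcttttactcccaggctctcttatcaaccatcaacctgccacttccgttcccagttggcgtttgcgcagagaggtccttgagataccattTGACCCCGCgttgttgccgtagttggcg
Ndufaf1: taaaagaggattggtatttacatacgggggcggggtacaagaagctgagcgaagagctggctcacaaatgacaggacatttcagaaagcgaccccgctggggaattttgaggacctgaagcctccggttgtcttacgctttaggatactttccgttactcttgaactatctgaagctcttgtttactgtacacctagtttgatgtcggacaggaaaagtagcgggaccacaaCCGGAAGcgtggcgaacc
Ndufb2: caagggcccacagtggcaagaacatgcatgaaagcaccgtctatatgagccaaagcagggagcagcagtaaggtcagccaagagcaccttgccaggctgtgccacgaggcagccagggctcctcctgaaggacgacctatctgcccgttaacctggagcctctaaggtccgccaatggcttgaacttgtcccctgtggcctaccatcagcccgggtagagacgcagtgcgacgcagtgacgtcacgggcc

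The Ndufaf4 stretch is chr4:24897833-24898082 on the plus strand. Its first capitals, TGACAACGC, begin 132 bases before the start, and the second run is formed by a pair of overlapping respiratory factor motifs on opposite strands that begin 113 and 111 bases before it. The Ndufa9 stretch is chr6:126849145-126849394 on the minus strand, with TGACCCCGC 28 bases before the start. The Ndufaf1 stretch is chr2:119662835-119663084 on the minus strand, with the ETS core 18 bases before the start. The Ndufb2 stretch is chr6:39592315-39592564 on the plus strand.

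Transcript level per length varied over more than 2 orders of magnitude among the members. In FPKM (reads scaled to gene length and library size, as deposited, mean over the 16 libraries), Atp5a1 and Atp5b, the α and β subunits of the catalytic head of ATP synthase, were highest at 238.8 and 188.2. Cox4i1, a structural subunit of cytochrome c oxidase, followed at 147.3. In all, 9 members exceeded 100 FPKM, among them Cox6b1 (139.9), Ndufb9 (131.3), Cox8a (130.0) and Uqcr11 (129.9). The complex medians were 24.7 FPKM for complex I, 61.4 for II, 57.8 for III, 59.2 for IV and 36.2 for V. Assembly factors were lower than subunits, with a median of 6.32 against 37.8 FPKM. Of the 19 members under 10 FPKM, the lowest subunits were Cox7a1 (1.36), the heart and muscle isoform of its subunit, and Ndufb2 (0.818). Their order rests on the gene length used: Ndufb2 held 1688 reads over 5628 bases and Cox7a1 282 reads over 535. A gene on the same strand, Gm42420, overlaps Ndufb2, and its part in this value was not tested. Annotated genes overlapped 12 members on the same strand, Cox4i1 and Ndufb8 among them, and 31 on the opposite strand. Their part in the members' values was not tested either.

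Isoform pairs showed the liver forms. Cox7a2, the widely expressed isoform, stood at 64.0 FPKM, and its relative Cox7a2l, which takes part in joining complexes III and IV into supercomplexes, at 47.4. Ndufa4 was at 93.5 FPKM and its hypoxia-inducible paralog Ndufa4l2 at 0.537. Among the 3 genes for the same ring subunit c of ATP synthase, Atp5g3 averaged 51.6 ± 8.13 FPKM in WT DMSO, Atp5g2 23.7 ± 1.44 and Atp5g1 18.9 ± 2.70 (n = 4 each). This order rests on the gene length used. Over the 16 libraries Atp5g3 held 48111 reads over 2181 bases, Atp5g2 16586 over 1675 and Atp5g1 46005 over 4912. The muscle or tissue-restricted forms Cox4i2, Cox6a2, Cox6b2, Cox7b2 and Cox8b all fell under the minimum of 100 reads.

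The members moved together between libraries, also within groups. Each member's log2(CPM + 0.5) was set against its own mean over the 16 libraries. In WT DMSO 1 and 2, 82 of 88 members were below their own mean, in KO untreated 1 83 and in KO untreated 2 79. By contrast 80 and 73 members were above it in WT DMSO 3 and 4, as were 84 in each of KO untreated 3 and 4. The average over all members was between -0.57 and -0.19 (log2) in the 4 libraries rich in intronic reads, and between -0.16 and 0.44 in the other 12, with no overlap. This holds for TMM-scaled levels. As an unscaled share of reads the 2 sets overlapped, with 0.728% in KO untreated 2 and 0.567% in WT CDDO-Me 4. WT CDDO-Me was also split, with 76 and 70 members below their mean in libraries 1 and 2 and 78 and 70 above it in libraries 3 and 4. KO CDDO-Me was the most even group, with 53 to 74 members above their mean in each of its 4 libraries. The movement was shared by genes outside the chain. On the same scale the 10 hepatocyte markers averaged -0.29, -0.37, 0.39 and 0.17 in WT DMSO and -0.49, -0.30, 0.26 and 0.35 in KO untreated. The 13 citrate cycle enzymes averaged -0.36, -0.35, 0.22 and 0.21, and -0.42, -0.14, 0.16 and 0.34. As with the members, both lists were lower in each of the 4 libraries rich in intronic reads than in any of the other 12.

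**Figure D1:**
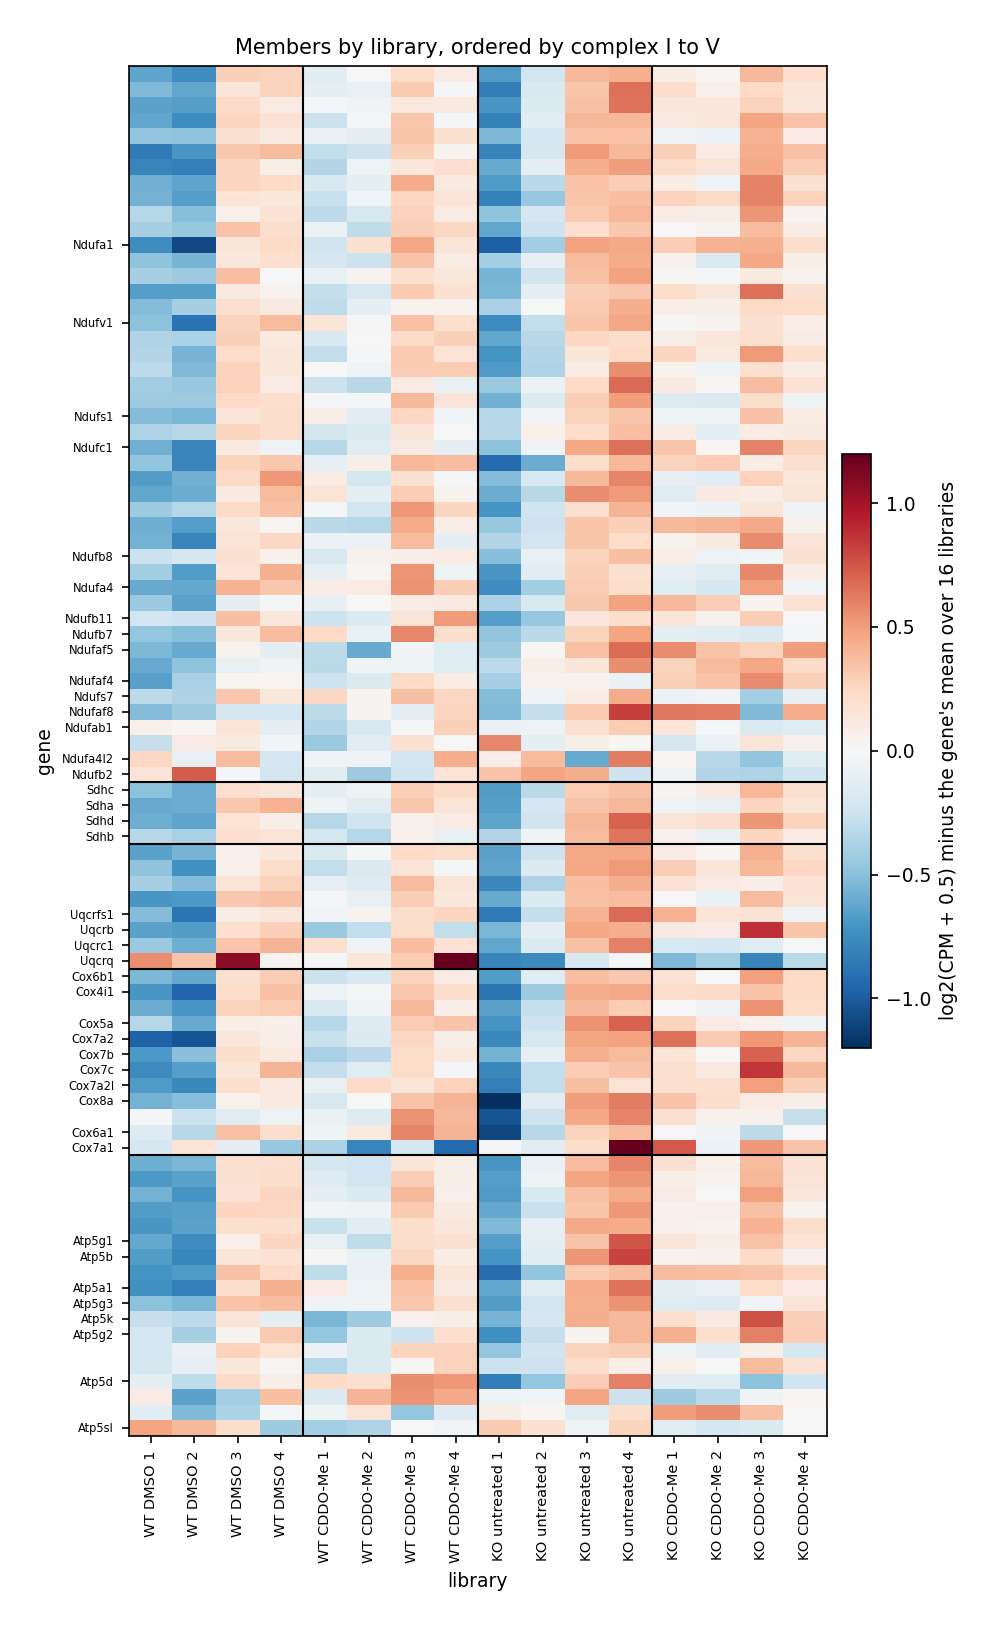
Each row is a member, grouped by complex I to V from top to bottom, and each column a library, with names for the genes of the naming rule and colour giving log2(CPM + 0.5) minus the gene's mean over the 16 libraries. Colours end at 1.2 in either direction, past which 3 of 1408 values lie. Whole columns are blue in WT DMSO 1 and 2 and KO untreated 1 and 2 and red in KO untreated 3 and 4, while single rows such as Uqcrq and Ndufb2 follow another pattern.

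The 5 complexes gave the same picture. The WT DMSO libraries of complex I averaged -0.47, -0.52, 0.19 and 0.14, and those of KO untreated -0.52, -0.17, 0.27 and 0.41 (log2, relative to each gene's mean). After CDDO-Me the values were -0.15, -0.11, 0.24 and 0.13 for WT livers and 0.12, 0.06, 0.25 and 0.13 for KO livers. All 4 groups overlapped. Complex IV spread most, from -0.78 in KO untreated 1 to 0.55 in KO untreated 4. Its group means were -0.21 ± 0.38 in WT DMSO, -0.03 ± 0.24 in WT CDDO-Me, -0.01 ± 0.61 in KO untreated and 0.25 ± 0.13 in KO CDDO-Me (SD, n = 4).

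**Figure D2:**
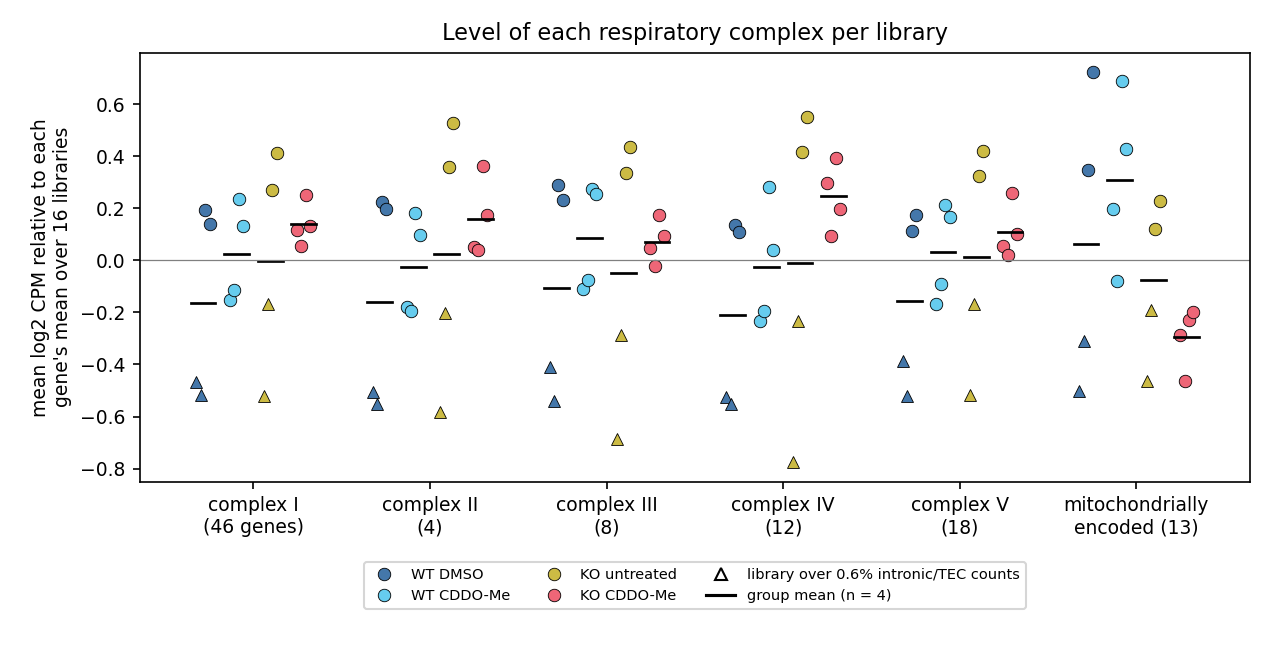
The vertical axis gives the mean log2 CPM of a complex's members relative to each gene's mean over the 16 libraries. Points are libraries, triangles are the 4 libraries with over 0.6% of reads in intronic and TEC genes, and bars are group means (n = 4). In every complex the triangles lie below the circles of their own group, and the groups overlap; the mitochondrially encoded genes at the right have their 4 KO CDDO-Me libraries between -0.46 and -0.20.

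CDDO-Me in WT livers moved no chain gene past the test. None of the 88 members passed edgeR's quasi-likelihood test in WT CDDO-Me against WT DMSO at a Benjamini-Hochberg adjusted p under 0.05, where 0.728% of the 16206 genes tested did. Only 1 member had an unadjusted p under 0.05, Atp5sl, against 15.3% of all genes. DESeq2 and limma called no member either. The fitted differences were small and mostly positive: 75 of 88 members were above 0, with a median of 0.18 log2 units beside -0.02 over all genes, and a median standard error of 0.25. Complex medians were 0.18 for I, 0.11 for II, 0.17 for III, 0.24 for IV and 0.18 for V. Without the 4 libraries rich in intronic reads the median over members was -0.17, so its sign rests on those libraries. Leaving out WT DMSO 1 or 2 or WT CDDO-Me 3 gave 0.06, 0.05 and 0.09, and leaving out WT DMSO 3 or 4 gave 0.32 each.

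The catalytic and core subunits illustrate the spread. Sdha, the flavoprotein of succinate dehydrogenase, was at 223.7, 225.1, 424.9 and 454.2 CPM in WT DMSO and at 328.9, 309.3, 424.2 and 379.4 in WT CDDO-Me. The WT DMSO libraries formed a low and a high pair, with all 4 treated libraries between them. Its fitted difference was 0.12 ± 0.26 (log2 ± SE). Cox4i1 also had a low and a high pair in WT DMSO, with 138.1, 115.2, 260.1 and 286.6 CPM there and 214.9, 222.1, 280.7 and 258.4 after CDDO-Me. Its treated library at 280.7 CPM lay within the range of the high pair. Ndufs1, which carries iron-sulfur clusters of the electron input arm of complex I, averaged 101.2 ± 28.4 and 114.7 ± 13.4 CPM. Uqcrfs1, the Rieske protein of complex III, averaged 79.8 ± 25.8 and 102.4 ± 9.80 CPM, and Atp5b 670.1 ± 231 and 818.6 ± 79.2 (n = 4 each).

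The largest differences among members with at least 1 CPM were Ndufa1 (0.41 ± 0.32), Atp5d (0.40 ± 0.25) and Cox7a2l (0.36 ± 0.25) on the positive side. On the negative side they were Atp5sl (-0.41 ± 0.18), Ndufb2 (-0.39 ± 0.25) and Atp5g2 (-0.11 ± 0.22). Ndufa1 is a small membrane-arm subunit of complex I and Atp5d the δ subunit of the ATP synthase stalk. Atp5sl, whose current symbol is Dmac2, serves the assembly of complex I's distal membrane arm. By edgeR's test the lowest adjusted p was that of Atp5sl, 0.300. For no member were the 4 treated libraries all above or all below the 4 controls, although 7.2% of all genes were separated in that way. Of the 16 NRF2 targets listed beside the members, 13 rose in the same comparison, among them Nqo1 (3.33 ± 0.30), Gclc (2.13 ± 0.20), Gsta1, Srxn1 and Txnrd1.

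In KO livers the picture after CDDO-Me was much the same. Again 0 of 88 members passed in KO CDDO-Me against KO untreated, beside 0.13% of all genes, and 3 (Ndufaf4, Atp5g2 and Ndufb2) had an unadjusted p under 0.05 beside 15.8%. DESeq2 and limma called none. The median over members was 0.10, with 63 of 88 above 0, beside -0.04 over all genes. By complex it was 0.12 for I, 0.10 for II, 0.10 for III, 0.21 for IV and 0.05 for V. Without the 4 libraries rich in intronic reads the median over members was -0.23, of the opposite sign. It was -0.08 without KO untreated 1, 0.03 without KO untreated 2 or KO CDDO-Me 3, 0.20 without KO untreated 3 and 0.29 without KO untreated 4. With the intronic share as a covariate, 1 member was called, Uqcrc1, a core protein of complex III (-0.58 ± 0.12, edgeR adjusted p = 0.0454). This was 1.14% of the 88 beside 0.531% of all genes.

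Ndufaf4, an early assembly factor of complex I, was the member that separated these groups. It was at 13.8, 19.0, 18.9 and 17.4 CPM in KO untreated and at 22.4, 23.4, 27.4 and 22.4 in KO CDDO-Me. All 4 treated libraries were above all 4 controls, as for 10.5% of all genes in either direction. The difference was 0.47 ± 0.17 (edgeR adjusted p = 0.245) and did not pass. In WT livers Ndufaf4 went from 15.7 ± 3.57 to 18.2 ± 2.86 CPM, and the difference between the 2 drug responses was -0.26 ± 0.24 (adjusted p = 0.887, edgeR). Of similar size were Atp5g2 (0.48 ± 0.22) and Cox7c (0.46 ± 0.28), a small subunit of cytochrome c oxidase. The lowest members with at least 1 CPM were Ndufb2 (-0.58 ± 0.24), Atp5sl (-0.32 ± 0.18) and Atp5d (-0.26 ± 0.25).

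The drug responses of the 2 genotypes were also compared directly. In the test of the WT response minus the KO response, 0 members passed beside 0.13% of all genes, and 0 had an unadjusted p under 0.05 beside 8.53%. DESeq2 and limma called none. The median over members was 0.06, with 55 of 88 above 0, and leaving out 1 library at a time gave -0.10 (without KO untreated 4) to 0.21 (without KO untreated 1). It was below 0 in 5 of these 16 fits, without WT DMSO 1 or 2, WT CDDO-Me 3 or KO untreated 3 or 4, so its sign rests on single libraries. Complex medians ran from -0.01 for IV to 0.11 for III and V. The highest members with at least 1 CPM were Atp5d (0.66 ± 0.35), Ndufb7 (0.47 ± 0.33) and Ndufs7 (0.44 ± 0.28), and the lowest Atp5g2 (-0.59 ± 0.31), Cox7c (-0.37 ± 0.40) and Atp5k (-0.36 ± 0.32). Over the 16 NRF2 targets the same difference had a median of 1.99, and 8 of them passed.

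**Figure D3:**
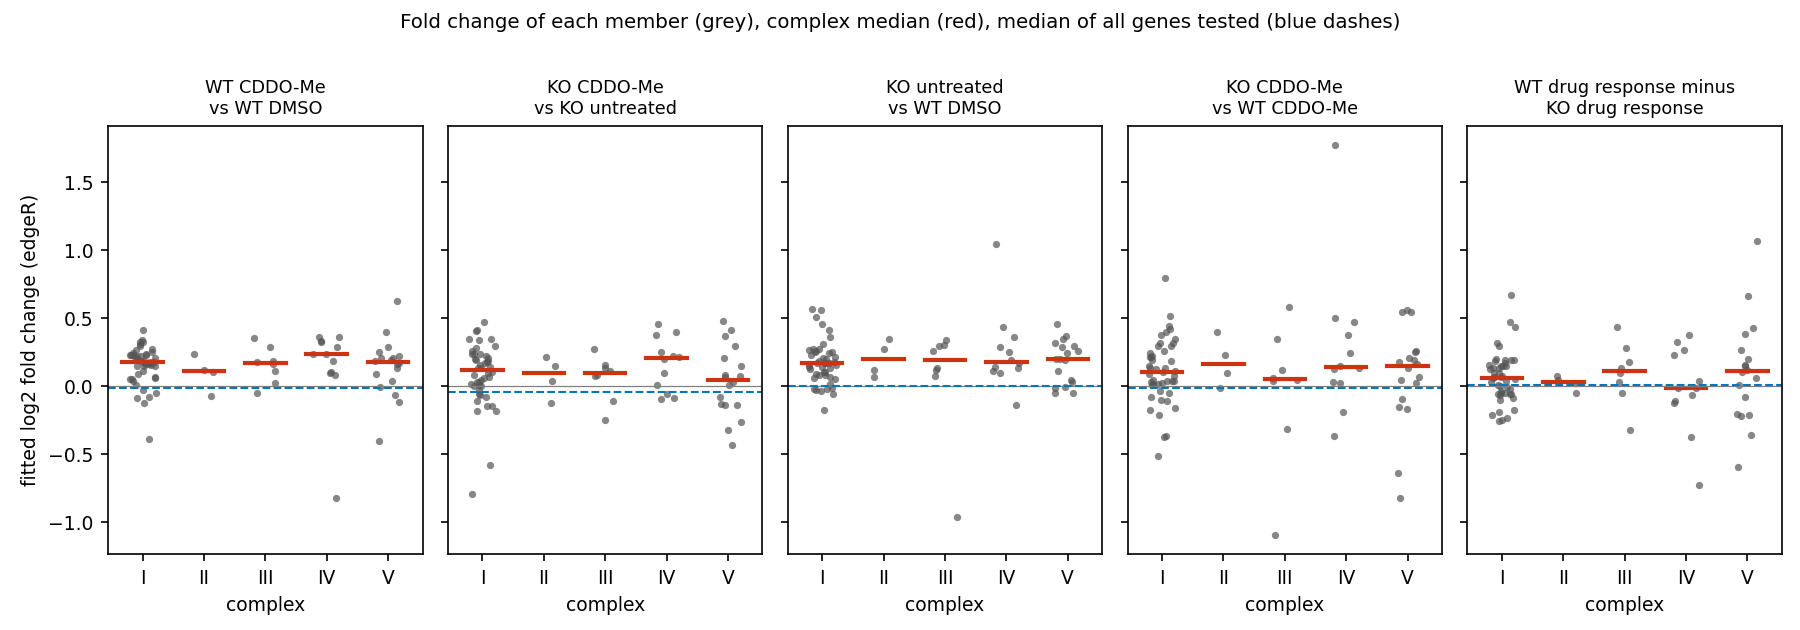
Each panel is a comparison, each grey point a member's fitted log2 fold change by complex (horizontal axis), each red bar the complex median and the blue dashes the median of the 16206 genes tested. Complex medians lie between -0.01 and 0.24 in every panel, and single points such as Uqcrq in complex III and Cox7a1 in complex IV lie near or past 1 in the KO against WT panels.

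Without drug, KO livers had slightly higher fitted levels for most members. In KO untreated against WT DMSO 0 of 88 members passed, beside 1.38% of all genes, and 2 (Uqcrq and Ndufaf7) had an unadjusted p under 0.05 beside 14.1%. The median over members was 0.17, with 75 of 88 above 0, and was 0.17 without the 4 libraries rich in intronic reads (all genes 0.00 and -0.02). Single libraries moved it more: it was 0.08, 0.06, 0.06 and 0.03 without WT DMSO 1, WT DMSO 2, KO untreated 3 and KO untreated 4, and 0.31, 0.32 and 0.325 without WT DMSO 3, WT DMSO 4 and KO untreated 1. Complex medians were 0.17 for I, 0.20 for II, 0.19 for III, 0.18 for IV and 0.20 for V. This comparison shares WT DMSO and KO untreated with the drug comparisons, so its values are not independent of theirs. DESeq2 called 1 member (Uqcrq, lower), or 1.14% of the 88 beside 4.03% of all genes. With the intronic share as a covariate edgeR called 6 members higher and 1 lower, or 7.95% of the 88 beside 5.08% of all genes. Ndufc1, Cox7a2, Ndufaf7, Atp5b, Ndufb9 and Uqcrh were higher and Uqcrq lower.

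limma on log2(FPKM + 1) called 4 members higher (Ndufaf7, Ndufaf3, Ndufb5 and Ndufc1), or 4.55% of the 88 beside 1.8% of all genes. FPKM were not rescaled between libraries. On that scale the median over all genes was 0.13 and that over the members 0.32, so the members' excess over all genes changed little. Ndufaf5 (0.56 ± 0.27), Ndufaf8 (0.57 ± 0.32) and Ndufc1 (0.51 ± 0.25) were the highest members with at least 1 CPM in edgeR's fit, and Uqcrq (-0.96 ± 0.30), Ndufb11 (-0.17 ± 0.22) and Cox6a1 (-0.14 ± 0.26) the lowest. Ndufaf5 hydroxylates an arginine of a complex I subunit and Ndufaf7 is an arginine methyltransferase, both acting during assembly. The share of all reads taken by the members was 0.606% to 0.951% in KO untreated and 0.533% to 0.697% in WT DMSO, and these ranges overlapped.

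Members, like all genes, were most often above or below the range of the other group between the genotypes under CDDO-Me. This comparison involves none of the 4 libraries rich in intronic reads, except through the shared estimate of the spread. None of the 88 members passed, beside 3.3% of all genes, and 9 had an unadjusted p under 0.05 (7 higher and 2 lower) beside 17.1%. The median over members was 0.12, with 67 of 88 above 0, beside -0.01 over all genes. It was 0.06 without WT CDDO-Me 1 or KO CDDO-Me 3 and 0.19 without WT CDDO-Me 3. Complex medians were 0.11 for I, 0.16 for II, 0.05 for III, 0.14 for IV and 0.15 for V. The 10 assembly factors were all above 0, with a median of 0.30. For 12 of the 88 members the groups did not overlap, 9 higher in KO CDDO-Me and 3 lower. This was a smaller share than the 19.1% of all genes. Among the higher were Ndufaf4, Ndufaf5, Ndufaf7, Ndufb5, Sdhd, Cox7a1, Cox7a2 and Atp5k, and lower were Ndufs7, Atp5d and Uqcrq.

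When only these 8 libraries entered the fit, 7 members passed edgeR's test at an adjusted p under 0.05, beside 13.5% of all genes. Ndufaf7, Ndufaf5, Cox7a2, Atp5g2 and Cox7a1 were higher in KO CDDO-Me, and Atp5d and Uqcrq lower. The same 7 passed when the 4 libraries rich in intronic reads were left out of the fit over all groups, beside 9.04% of genes. With the intronic share as a covariate 16 passed, 11 higher and 5 lower, beside 13.4%. DESeq2 called 3, Ndufaf5 and Cox7a1 higher and Uqcrq lower, beside 6.94%, and limma on log2(FPKM + 1) called 11, all higher, beside 7.12%. As shares of the 88 members these counts are 7.95%, 7.95%, 18.2%, 3.41% and 12.5%, of which only the covariate and limma values exceed those of all genes. The FPKM behind the limma fit were not rescaled between libraries. On that scale the median difference was 0.24 over the members and 0.08 over all genes. The 8 endothelial and stellate cell markers all had fitted differences below 0 in KO CDDO-Me (median -0.48). None of them passed edgeR's or DESeq2's test, 4 had an unadjusted edgeR p under 0.05, and limma called 1, Dcn. They stood at a sum of 41.3 to 57.0 FPKM against 56.8 to 87.5 in WT CDDO-Me, and their part in the members' values was not tested.

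Among the assembly factors, Ndufaf7 was at 7.66, 9.38, 9.33 and 8.72 CPM in WT CDDO-Me and at 11.9, 12.8, 13.6 and 11.5 in KO CDDO-Me. Every KO library was above every WT library. The difference was 0.51 ± 0.19 (edgeR adjusted p = 0.160), and over the 29 alternatives its adjusted p ran from 0.00907 to 0.361. Ndufaf5 was at 2.40, 1.86, 3.00 and 2.75 CPM in WT CDDO-Me and at 4.82, 4.07, 3.86 and 4.61 in KO CDDO-Me, again without overlap. Its difference was 0.80 ± 0.27 (edgeR adjusted p = 0.123, and 0.00856 to 0.288 over alternatives). In the untreated pair both genes overlapped between genotypes, with Ndufaf5 at 2.48 ± 0.656 in WT DMSO and 3.67 ± 1.31 in KO untreated. Ndufaf4 averaged 18.2 ± 2.86 in WT CDDO-Me and 23.9 ± 2.39 in KO CDDO-Me.

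In complex IV, Cox7a2 was at 48.4, 51.8, 68.9 and 61.1 CPM in WT CDDO-Me and at 92.1, 72.6, 83.3 and 77.2 in KO CDDO-Me. The groups were separate, by 0.50 ± 0.29 (edgeR adjusted p = 0.421, 0.00991 to 0.661 over alternatives). Its muscle isoform Cox7a1 (chr7:30184144-30186078, plus strand, 282 reads in all) was at 0.362, 0.149, 0.474 and 0.0918 CPM in WT CDDO-Me and at 1.38, 0.574, 1.12 and 0.928 in KO CDDO-Me. The difference was 1.77 ± 0.54 (edgeR adjusted p = 0.0873, 0.0236 to 0.229 over 28 alternatives). In KO untreated it was at 0.610, 0.531, 0.802 and 2.30 CPM and in WT DMSO at 0.478, 0.763, 0.535 and 0.321, which overlapped. Markers of muscle, brown fat and adipocytes summed to 0.568 to 2.08 FPKM in WT CDDO-Me and 0.692 to 0.991 in KO CDDO-Me. The sum was 2.05 to 3.14 in KO untreated and 0.622 to 1.57 in WT DMSO, with 9 of 10 listed genes in the table, and Myh6 was at 0 in every group but WT CDDO-Me. Their part in Cox7a1 was not tested.

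In complex V, Atp5d was lower in KO CDDO-Me, at 102.1, 101.6, 79.9 and 95.4 CPM against 132.4, 128.6, 166.1 and 161.5 in WT CDDO-Me. The difference was -0.63 ± 0.25 (edgeR adjusted p = 0.188, 0.00517 to 0.40 over alternatives). A gene on the opposite strand, Cbarp, overlaps Atp5d, and the strand setting of the counting is not given in the sources used here. Atp5g2 overlapped between the groups by a single pair of libraries, with 30.0, 37.0, 34.9 and 47.9 CPM in WT CDDO-Me and 56.2, 47.6, 63.3 and 51.0 in KO CDDO-Me. Its difference was 0.54 ± 0.22 (edgeR adjusted p = 0.213, 0.00518 to 0.453 over alternatives). The other genes for subunit c did not follow: Atp5g1 differed by 0.17 ± 0.27 and Atp5g3 by -0.15 ± 0.26. Atp5k, subunit e, was at 31.6 ± 7.03 and 46.5 ± 10.2 CPM. Ndufs7, an iron-sulfur subunit of complex I, was at 49.4 ± 4.63 in WT CDDO-Me and 38.1 ± 4.35 in KO CDDO-Me.

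**Figure D4:**
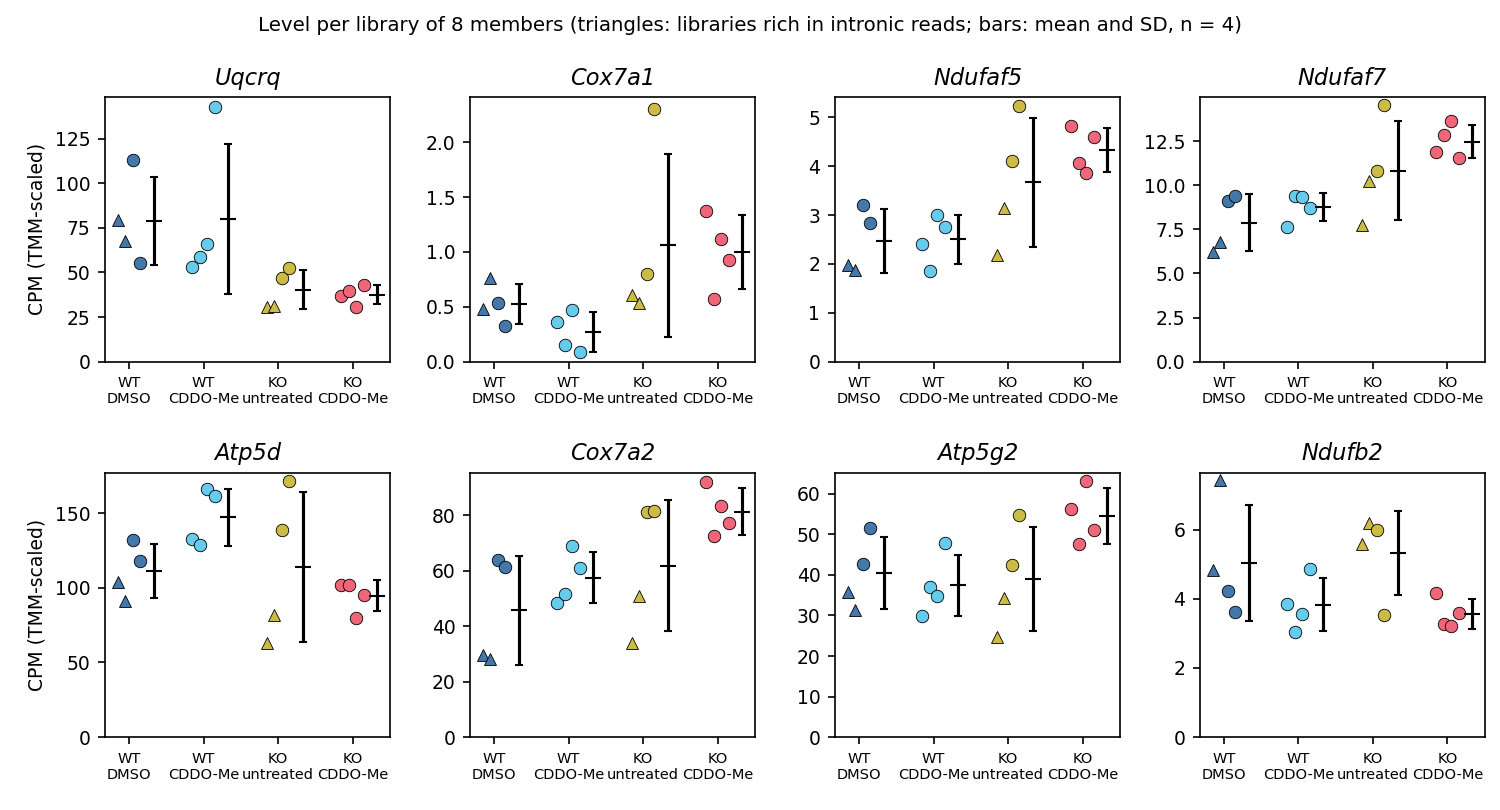
Level per library (CPM, vertical axis, starting at 0) of 8 members in the 4 groups, with bars for mean and SD (n = 4) and triangles for the libraries rich in intronic reads. Ndufaf5, Ndufaf7, Cox7a1 and Cox7a2 are higher and Atp5d and Uqcrq lower in each KO CDDO-Me library than in each WT CDDO-Me library. Ndufb2 is lowest on average in KO CDDO-Me and WT CDDO-Me.

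Uqcrq was separated by genotype, as 1 of the 88 members, a share like that of all genes, and did not pass edgeR's test. Uqcrq (chr11:53427922-53430831, minus strand), a small subunit of complex III, was the only member whose 8 KO libraries all lay below its 8 WT libraries, as 1.14% of all genes were separated in either direction. It was at 79.2, 67.9, 112.9 and 55.2 CPM in WT DMSO, 53.0, 58.9, 66.2 and 142.6 in WT CDDO-Me, 30.7, 31.4, 46.9 and 52.6 in KO untreated and 37.0, 39.9, 30.4 and 42.8 in KO CDDO-Me. The highest KO library and the lowest WT library differed by less than 1 CPM (52.6 and 53.0). It was also the only member separated between KO untreated and WT DMSO, beside 5.91% of all genes. The differences were -0.96 ± 0.30 without drug (edgeR adjusted p = 0.132, 0.0401 to 0.815 over 29 alternatives) and -1.09 ± 0.30 under CDDO-Me (edgeR adjusted p = 0.0588, 0.0109 to 0.238 over 29 alternatives). The test was passed in 2 and 9 of those alternatives. Within complex III the other 7 members were above 0 without drug.

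Uqcrq was high in the libraries rich in mitochondrial ribosomal RNA. The 4 libraries with over 5% of such reads, WT DMSO 1, 2 and 3 and WT CDDO-Me 4, had the 4 highest levels of Uqcrq, and no KO library had over 0.901%. With the log2 of that share as a covariate, an alternative chosen after seeing this, the differences were -0.20 without drug (edgeR adjusted p = 0.815) and -0.59 under CDDO-Me (adjusted p = 0.168). Without WT CDDO-Me 4 the second was -0.66 (edgeR adjusted p = 0.238). The 4 libraries with over 5% were all WT, so that share and genotype cannot be told apart here. The cause of the Uqcrq difference was not tested. Among the 4 WT libraries with at most 1.54%, Uqcrq was at 53.0 to 66.2 CPM. Uqcrfs1, the Rieske protein, did not share the pattern: it was at 65.4, 50.9, 99.6 and 112.3 CPM in the 4 libraries with over 5% and at 150.7 in KO untreated 4. No annotated gene overlaps Uqcrq.

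**Figure D5:**
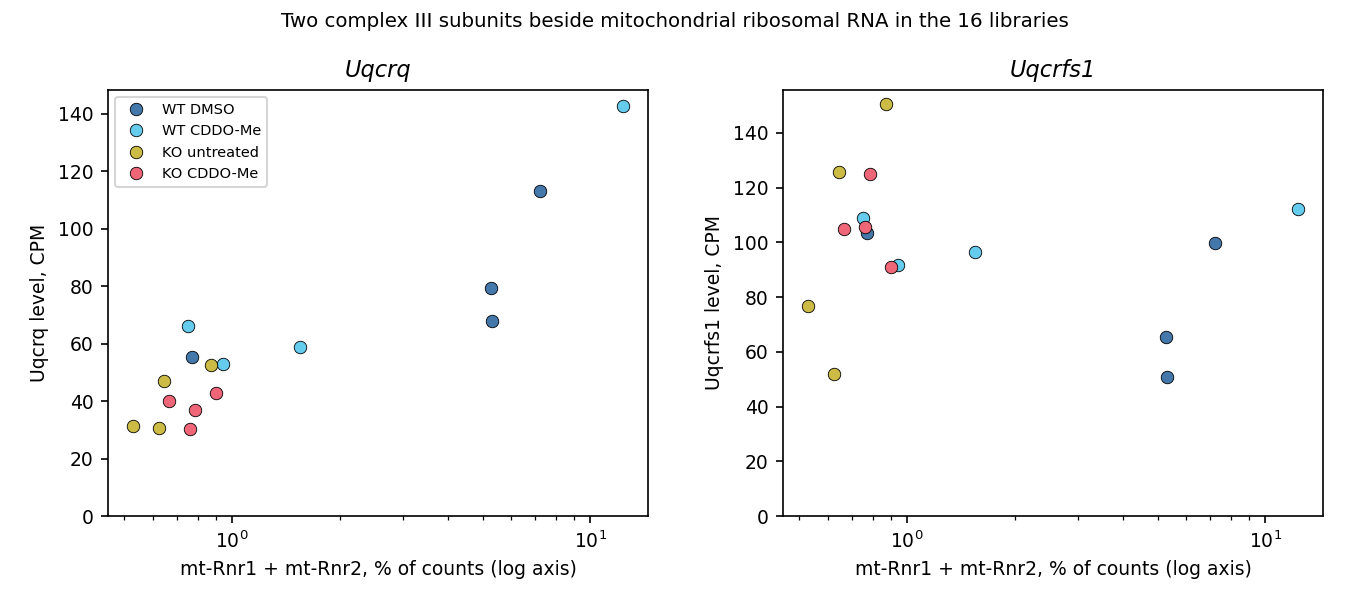
Each point is a library, with the share of reads in mt-Rnr1 and mt-Rnr2 on the horizontal log axis (%) and the level of Uqcrq (left) or Uqcrfs1 (right) on the vertical axis (CPM). For Uqcrq the 4 points past 5% lie between 67.9 and 142.6 CPM, above all others; for Uqcrfs1 they lie between 50.9 and 112.3 among the rest.

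Ndufb2 and Atp5sl had the lowest correlations with the other members. Pearson's r between a member and the mean of the others over the 16 libraries, which share their scaling factors and groups, had a median of 0.92, and 54 members exceeded 0.9. The genes closest to the rest included Ndufa9 (0.98). Only 4 were under 0: Ndufb2 (-0.55), Atp5sl (-0.41), Ndufa4l2 (-0.21) and Ndufaf6 (-0.05), with Uqcrq at 0.04. These values are descriptions without a test. Ndufb2, a small subunit of complex I (chr6:39592574-39603382, plus strand), was at 4.84, 7.42, 4.22 and 3.63 CPM in WT DMSO and 5.59, 6.18, 5.99 and 3.54 in KO untreated. In WT DMSO it was highest in library 2, where the others were lowest on average, and in KO untreated it was lowest in library 4, where the others were highest, but it was also high in KO untreated 3, as they were. Braf on the opposite strand and Gm42420 on the same strand overlap it. Its fitted difference after CDDO-Me was -0.39 ± 0.25 in WT and -0.58 ± 0.24 in KO (edgeR adjusted p = 0.432 and 0.278).

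Further subunits of complex I are given by their levels. Ndufv1, which binds NADH in complex I, averaged 113.3 ± 44.8 CPM in WT DMSO and 121.8 ± 44.9 in KO untreated. After CDDO-Me its libraries lay closer together, at 136.1 ± 14.6 in WT and 127.1 ± 6.88 in KO. Ndufab1, the mitochondrial acyl carrier protein, which also serves fatty acid synthesis and iron-sulfur assembly, had group means from 26.9 to 29.7 CPM. Ndufb8, a membrane-arm subunit often used as a marker of assembled complex I, was at 19.0 ± 2.85 CPM in WT DMSO and 20.2 ± 5.33 in KO untreated, and at 19.8 ± 1.81 (WT) and 20.2 ± 1.61 (KO) after CDDO-Me. The largest difference of these 3 genes between groups was that of Ndufv1 after CDDO-Me in WT, 0.26 ± 0.27 log2 units.

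Among the subunits of cytochrome c oxidase and ATP synthase, Cox5a, a nuclear subunit at the matrix side, averaged 46.6 ± 10.4 CPM in WT DMSO and 59.9 ± 26.0 in KO untreated. Atp5a1 was at 444.2, 416.6, 850.8 and 984.3 CPM in WT DMSO and 475.1, 664.0, 991.1 and 1157 in KO untreated, a spread of more than 2 times within each group. After CDDO-Me the same gene lay at 704.9 to 931.9 in WT and 676.6 to 854.1 in KO. Uqcrb, a small subunit of complex III at the ubiquinone site, was at 33.6, 37.4, 53.7 and 37.4 CPM in WT CDDO-Me and 49.5, 49.2, 85.03 and 58.0 in KO CDDO-Me. Its groups overlapped, and its difference of 0.58 ± 0.28 did not pass edgeR's test (adjusted p = 0.302).

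The remaining complex I assembly factors were low, and their libraries overlapped in each of the 4 group comparisons tested. Ndufaf1, which helps to build the membrane arm, averaged 14.2 ± 5.06 CPM in WT DMSO and 18.9 ± 3.39 in KO CDDO-Me, its lowest and highest group means. Ndufaf2 likewise ran from 3.82 ± 1.21 to 5.89 ± 0.772 and Ndufaf3 from 5.84 ± 1.24 to 8.55 ± 0.956 between the same groups, which were not compared by a test. There the 4 KO CDDO-Me libraries of Ndufaf3 (7.39 to 9.59 CPM) all lay above the 4 WT DMSO libraries (4.44 to 7.12). These groups differ in both genotype and drug, and the share of all genes separated between them was not counted. Ndufaf6 was nearly level, with group means of 6.84 to 8.20 CPM. Ndufaf8, a partner of Ndufaf5, averaged 4.04 ± 0.506 in WT DMSO and 6.86 ± 2.32 in KO CDDO-Me.

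Complex II was the complex with the fewest genes and no isoforms. Sdhd, a membrane anchor, was at 81.4, 87.5, 107.1 and 110.1 CPM in WT CDDO-Me and at 115.6, 119.4, 148.6 and 124.3 in KO CDDO-Me, with no overlap and a difference of 0.40 ± 0.26 (edgeR adjusted p = 0.479). Sdhb, the iron-sulfur subunit, averaged 79.4 ± 9.56 and 93.0 ± 9.07 CPM there. Sdhc, the other anchor, averaged 85.6 ± 12.2 and 91.5 ± 10.5, and Sdha 360.4 ± 51.8 and 357.8 ± 40.5. The subunits of this complex thus differed in the same fit by between -0.01 and 0.40.

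Other genes of the pathway gave the following counts by the same edgeR test. The 13 subunits encoded by mitochondrial DNA, which join those of complexes I, III, IV and V, had 0 calls in 4 comparisons, with 0, 2, 0 and 1 at an unadjusted p under 0.05 (WT drug, KO drug, KO against WT without drug, difference of responses). There DESeq2 called none and limma 1, mt-Nd4l in the KO drug comparison. In KO CDDO-Me against WT CDDO-Me edgeR called 2 lower, and DESeq2 and limma 7 each. These were mt-Atp8, a subunit of ATP synthase (-1.09 ± 0.24, edgeR adjusted p = 0.0191), and mt-Nd4l, of complex I (-0.94 ± 0.21, edgeR adjusted p = 0.0215). Both passed in 24 of 29 alternatives, with adjusted p from edgeR, DESeq2 or limma of up to 0.0761 and 0.0884. mt-Atp8 was at 55.3, 59.7, 121.3 and 133.8 CPM in WT CDDO-Me and at 48.5, 37.7, 47.9 and 39.9 in KO CDDO-Me. The median over the 13 was -0.74 there, with 2 above 0, beside 0.12 for the nuclear members. For all 13 the WT response minus the KO response was above 0, with a median of 0.42, and none passed. Ribosomal RNA of the mitochondria varied over the same libraries, and its part in these values was not tested.

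Of 36 assembly factors outside the members 0 passed edgeR's test in any comparison, with 4, 4, 4, 11 and 2 at an unadjusted p under 0.05 in WT drug, KO drug, KO against WT without drug, KO against WT under drug and the difference of responses. DESeq2 called 2 of these higher under drug in KO against WT, and limma 6 there and 1 without drug. Of 13 citrate cycle enzymes none passed edgeR's test either (0, 1, 0, 2 and 1 at an unadjusted p under 0.05), while DESeq2 called Fh1 and limma Fh1 and Sucla2 higher in KO under drug. Among 18 electron carriers and genes of coenzyme Q synthesis, Coq8a, an atypical kinase of that pathway, was higher in KO untreated than in WT DMSO, at 417.8 ± 146 against 229.1 ± 22.1 CPM (0.87 ± 0.21, edgeR adjusted p = 0.0493). It passed in 8 of 29 alternatives, and in 1 of the 16 that left out a library (adjusted p 0.00268 to 0.329 over all 29, edgeR, DESeq2 or limma). Among 12 regulators of mitochondrial biogenesis, Ppargc1a, a coactivator of respiratory gene transcription, averaged 9.51 ± 3.84 CPM in WT CDDO-Me and 27.4 ± 4.94 in KO CDDO-Me (1.54 ± 0.38, edgeR adjusted p = 0.0330, passing in 23 of 29 alternatives). Tfam, which packages and transcribes mitochondrial DNA, did not pass in any comparison, and neither did Cycs, the electron carrier cytochrome c (35.1 ± 6.93 CPM in WT CDDO-Me and 45.9 ± 10.8 in KO CDDO-Me). Pprc1, a relative of Ppargc1a, was lower in KO livers, by -1.33 ± 0.26 without drug (edgeR adjusted p = 0.0189) and -1.00 ± 0.26 under CDDO-Me (adjusted p = 0.0480), passing in 23 and 13 of 29 alternatives. Nrf1 and Gabpa, which encode factors whose motifs were counted in the promoters, differed by at most 0.22 log2 units in size in the 4 group comparisons and did not pass (lowest edgeR adjusted p = 0.548).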

How the data were processed

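Liver RNA depleted of ribosomal RNA was sequenced as directional paired reads of 150 bases. The submitters' processing notes name cutadapt 1.2.1, TopHat2 2.1.0, HTSeq 0.6.1p1 and DESeq2 on GRCm38.p5, without the strand setting. The authors deposited a table of raw read counts per gene and a separate table of FPKM. FPKM equals count over gene length and library total (relative deviation at most 3.3e-07) and is not rescaled between libraries. Members and gene lists were chosen with earlier results of these data known.

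All 16 libraries entered 1 edgeR quasi-likelihood fit of the 4 groups (edgeR 4.0.16, R 4.3.3, TMM factors, filterByExpr, 16206 genes), with Benjamini-Hochberg adjustment over all genes and calls under 0.05, checked on simulated counts. Levels are TMM-scaled CPM. Alternatives used DESeq2 1.42.0, limma 3.58.1 on log2(FPKM + 1) or log2(FPKM + 0.1), other scalings and filters, covariates, a replicate block and left-out libraries. Named genes are a fixed panel of core subunits and isoform families and, per comparison, the 3 highest and 3 lowest members with at least 1 CPM; members named for groups that do not overlap, for calls in an alternative or for low likeness were chosen after their values were seen. Results for 1 member by name are not reported here. Gene positions are from GENCODE M21 and promoters from RefSeq GRCm38.p6. No 2 libraries of a group agreed within sampling noise (lowest chi-square per degree of freedom 15.0). Same-numbered libraries of KO untreated and WT DMSO deviated together (r 0.371 to 0.483 in 4 of 4 pairs). By that measure the numbers may pair libraries there, but only 2 of 4 numbers correlated best with their own, and numbers 1 and 2 are the intron-rich libraries of both groups. The reported fit has no block; in the other comparisons r ran from -0.454 to 0.346.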

Additional observations from a re-analysis of the deposited data

Results flagged for a closer look

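Among the 4 libraries of each group, 1 library stood far from the other 3 in 7 of 196 sets of values (4 groups of each named member and score), where chance gives about 1 in 20 by Dixon's ratio. In KO CDDO-Me 3, Atp5b was at 916.6 CPM while the other 3 libraries lay at 804.8 to 807.9, and Cox4i1 was at 283.8 beside 259.9 to 263.1. In the same library Cox6a1 was at 66.97 beside 81.09 to 83.65, and Ndufs7 at 31.63 beside 39.44 to 41.02. Cox7a1 was at 2.301 CPM in KO untreated 4 beside 0.5309 to 0.8023, and Ndufb8 at 17.07 in WT CDDO-Me 1 beside 20.32 to 20.84. Uqcrq was at 142.6 CPM in WT CDDO-Me 4, the library with the most mitochondrial ribosomal RNA, beside 52.96 to 66.15.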

How the results depend on the processing

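None of the 42 named members checked was called in an alternative with a sign opposite to that of the reported fit. Signs were not compared for all called genes. Counts of calls and the complex medians, which have no test, moved with the setting, and the cause was not tested. Genes called in WT CDDO-Me against WT DMSO were 72 with only those groups fitted and 466 by DESeq2 (118 as reported). For KO CDDO-Me against KO untreated (21) they were 51 without a filter, 86 with the intronic share as covariate, 4 without the 4 intron-rich libraries, 88 without the pair WT DMSO 4 plus WT CDDO-Me 1, 63 and 60 by limma with pseudocounts 1 and 0.1, and 299 by DESeq2. For KO untreated against WT DMSO (223) they were 824 with the covariate, 20 with only those groups, 86 without the intron-rich libraries and 653 by DESeq2. For KO against WT under CDDO-Me (534) they were 2168, 2045, 1482 and 1125 in the same order, and 1002 and 999 by limma. For the difference of responses (21) they were 39 with upper-quartile scaling, 38 without a filter, 201 with the covariate, 67 without the intron-rich libraries, 50 and 48 by limma and 178 by DESeq2.

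Members called (0 as reported) were 1 in the KO drug comparison with the covariate. Without drug, KO against WT gave 7 with the covariate, 4 by limma at either pseudocount and 1 by DESeq2. Under CDDO-Me KO against WT gave 16 with the covariate, 7 with only those groups, 7 without the intron-rich libraries, 11 by limma at either pseudocount and 3 by DESeq2. It gave 1, Uqcrq, with upper-quartile scaling, with a mean of at least 1 CPM, and without the pair left out above. With the replicate number as a block, genes called were 226, 46, 250, 811 and 42 for the 5 comparisons, and the only member called was 1, Atp5k, in KO against WT under CDDO-Me.

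Complex medians after CDDO-Me in WT were -0.13 (IV) and -0.14 (V) with the covariate, and -0.16, -0.28, -0.19, -0.17 and -0.19 (I to V) without the intron-rich libraries. In KO they were -0.21 (I) and -0.28 (V) with the covariate and -0.20 (I) without those libraries. Leaving out 1 library at a time gave 54 to 219, 4 to 133, 104 to 271, 265 to 820 and 18 to 48 genes called in the 5 comparisons. Members called stayed at 0 except under CDDO-Me, 0 to 1: Uqcrq without WT DMSO 4 or WT CDDO-Me 1, and Cox7a1 without KO untreated 4. Complex I medians then ran from 0.05 to 0.32, -0.03 to 0.29, 0.03 to 0.32, 0.06 to 0.19 and -0.10 to 0.19.

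The median standard error of a member's fold change, 0.25 log2 units, limits what 4 libraries a group can show, and the members under 1 CPM rest on few reads.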

Other observations

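Isoforms with known restriction to muscle, testis or lung were close to absent from these livers. Cox4i2, the lung form of subunit 4, had 31 reads over the 16 libraries, of which 14 were in WT CDDO-Me 1, the deepest library. Cox6b2, the testis form, had 25 reads (12 in that library), and the striated muscle forms Cox6a2 and Cox8b had 13 and 5. Cox7b2 had none. Cox7a1 was the exception among the muscle forms, with 282 reads spread over all 16 libraries.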
